A study of Danio rerio with 26 samples.

Results

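Collagens, laminins and the genes that build, cross-link and cut the extracellular matrix were followed through 3 regions of the adult zebrafish telencephalon before and after a stab wound. A gene was a member when its platform symbol began with col and a chain number, lam with a chain letter and number, or mmp and a number, or with timp, lox, fn1, tnc, tnr, sparc, vcan, ncan or bcan. The rule matched 110 of 19260 named genes, each represented by its brightest probe set on average. Of these, 104 encode matrix proteins, their cross-linking enzymes or the metalloproteinase system. The other 6 match by letters only (TNRC6A, tnrc6ba, tnrc6c1 and tnrc18, which are trinucleotide-repeat genes, and loxhd1a and loxhd1b) and are kept out of the counts below.

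Biotin-labelled total RNA from 26 tissue samples was hybridised to 26 arrays in 9 groups. The fish were 3 to 6 months old and of the Tg(gfap:gfp)mi2001 line, a reporter in which the gfap promoter drives green fluorescent protein, and this holds for the lesioned and the unlesioned fish alike. The dorsal parenchyma, the tissue away from the ventricle, had 3 arrays 2 days after the stab wound, 3 after 7 days and 2 without a lesion. The dorsal subventricular zone (SVZ), which lines the ventricle, had 3 arrays in each of these groups, and the medial neurogenic zone, called the medial zone below, had 4 arrays at day 2, 3 at day 7 and 2 unlesioned. The labels call the arrays biological replicates and do not say how many fish each holds, so p-values measure the spread between arrays. The treatment text speaks of injecting fish through an opening made in the skull, whereas the sample labels name a stab wound, and no sham-operated group is named.

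The extracellular matrix of the brain differs from that of other organs in holding little fibrillar collagen. Its sheets are the basement membranes, in which laminins and type IV collagen form networks around vessels and under the pial surface. Its loose part is built on hyaluronan, lecticans such as brevican and versican, and tenascins. Lysyl oxidases cross-link collagen and elastin, matrix metalloproteinases (MMPs) cut matrix and cell surface proteins, and tissue inhibitors of metalloproteinases (TIMPs) block them. In mammals a brain wound is known to bring fibronectin, collagen and laminin into a scar, while the zebrafish telencephalon repairs with little lasting scar.

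The tissue labels were set against markers of cell types. The Notch target her4.1, a gene of ventricular radial glia, lay between 2.38 and 3.52 in the 8 parenchyma arrays, between 6.94 and 7.78 in the 9 dorsal SVZ arrays and between 5.70 and 6.92 in the 9 medial arrays. The glial gene gfap did not separate the regions (6.62 to 8.92 in parenchyma, 6.55 to 7.94 in dorsal SVZ). The endothelial receptor kdrl ran from 6.18 to 7.51 in parenchyma and from 4.88 to 5.96 in the dorsal SVZ, and inhibitory neuron gene gad2 was highest in the medial arrays (8.44 to 9.28). All values are log2 intensities, and the median of the whole table was 3.09. Of the 104 matrix genes 57.7% had a mean above that median, against 72.3% of all genes, and values near or under it are not shown to be above background.

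More matrix genes were called between regions than after the lesion, and the same held for all genes. Between dorsal SVZ and parenchyma, averaged over the 3 times, 21 of the 104 matrix genes were higher and 4 lower (19.2% of all genes were called in either direction, 11.9% higher and 7.28% lower). Between medial zone and parenchyma 13 were higher and 28 lower (34.1% of all genes called, 20.6% higher and 13.4% lower). Between medial zone and dorsal SVZ 6 were higher and 22 lower (19.6% of all genes called, 11.3% higher and 8.27% lower). In either direction, 25, 41 and 28 called genes of 104 lie somewhat above the share of all genes. By direction, the 21 higher in dorsal SVZ than in parenchyma and the 28 and 22 lower in the medial zone lie further above theirs. The counts in the opposite directions, 4, 13 and 6, lie below theirs. These splits depended on scaling, as given below, and their departure from the shares was not tested. The median log2 difference of the matrix genes was -0.05, -0.17 and -0.15 in these 3 comparisons, and that of all genes -0.01, 0.00 and 0.01. A call means a Benjamini-Hochberg adjusted p under 0.05 in limma over all 19260 genes, and every adjusted p below comes from that fit. In pieces of tissue, fewer cells of a type and less RNA per cell cannot be told apart.

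**Figure D1:**
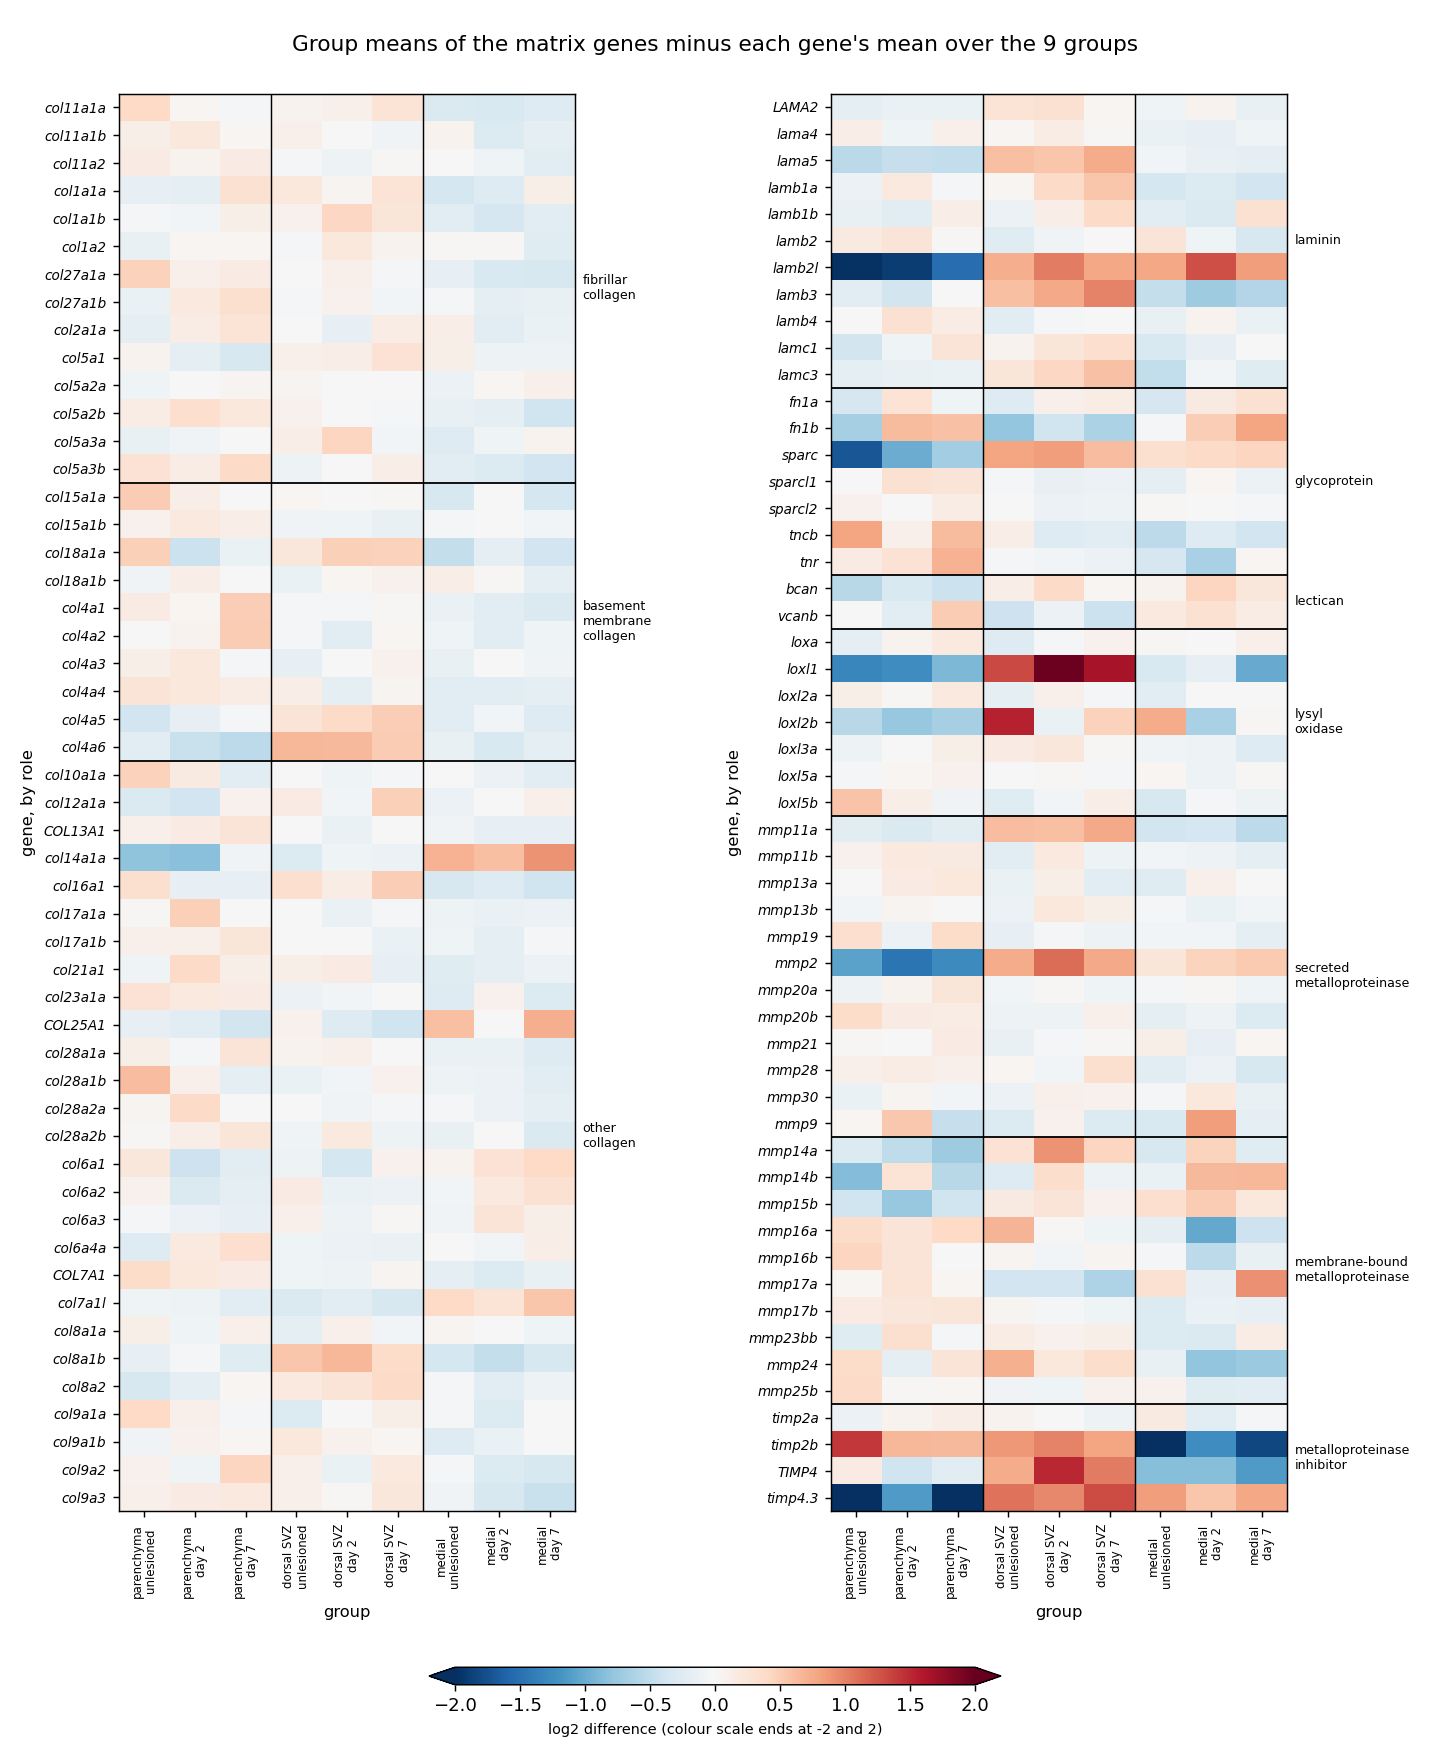
Heat map of the 104 matrix genes (rows, by role) in the 9 groups (columns), as group mean minus the gene's mean over the 9 groups on the log2 scale. Blocks of colour follow the regions rather than the times: lamb2l, sparc, mmp2 and timp4.3 are blue in the parenchyma, loxl1 is red in the dorsal SVZ, and timp2b is blue in the medial zone.

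The number of calls and their split into higher and lower depended on scaling. Subtracting each array's median over the 19260 named genes moved the median of all genes by -0.17 for dorsal SVZ against parenchyma. The shift was -0.24 for medial zone against parenchyma. Those array medians ran from 4.064 to 4.245 in parenchyma, 4.239 to 4.401 in dorsal SVZ and 4.302 to 4.476 in the medial zone. The splits became 17 higher and 38 lower, and 9 higher and 66 lower. In either direction 33.9% and 52.5% of all genes were called. For medial zone against dorsal SVZ the split became 5 higher and 28 lower, where 20.3% of all genes were called. Shares of all genes by direction after subtraction are not given here. A second quantile normalization gave 17 and 8, 12 and 24, and 5 and 21, for which the shares of all genes are not given here. Of the calls made on the deposited values, 21 of 25, 37 of 41 and 27 of 28 stayed called in the same direction after median subtraction. Of the 28 genes lower in the medial zone than in parenchyma, 11 had a mean at or under the table median. All genes at or under it had a median difference of -0.12 in that comparison, with 111 higher and 633 lower, against 0.12 for genes above it. Arrays of the 2 regions did not overlap for 9 matrix genes in dorsal SVZ against parenchyma (4.4% of all genes), 6 in medial zone against parenchyma (6.9%) and 11 in medial zone against dorsal SVZ (4.94%).

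The TIMPs, which block metalloproteinases, held some of the widest regional contrasts, and the 4 measured members differed in how they were arranged. The gene timp4.3 was low in parenchyma (lowest 2.57, median 3.62, highest 5.15 over 8 arrays). It was high in the dorsal SVZ (6.11, 6.61 and 7.06 over 9 arrays) and in the medial zone (5.13, 6.37 and 7.01 over 9 arrays). No dorsal SVZ array overlapped a parenchyma array. The differences from parenchyma were 7.78-fold for dorsal SVZ (log2 2.96, SE 0.31, adjusted p = 1.11e-07) and 5.91-fold for the medial zone (log2 2.56, SE 0.32, adjusted p = 8.44e-07). The medial zone did not differ from dorsal SVZ beyond the spread (log2 -0.40, SE 0.30, adjusted p = 0.415).

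The gene timp2b was low in the medial zone instead. It ran from 7.85 to 9.09 (median 8.32) in parenchyma and from 7.75 to 9.06 (median 8.43) in the dorsal SVZ, but only from 4.80 to 6.53 (median 5.96) in the medial zone. The highest medial array lay below the lowest array of both other regions. The medial zone was 6.5-fold lower than parenchyma (log2 -2.70, SE 0.17, adjusted p = 1.51e-11) and 6.38-fold lower than dorsal SVZ (log2 -2.67, SE 0.16, adjusted p = 1.2e-11). Parenchyma and dorsal SVZ were not called against each other (log2 -0.03, adjusted p = 0.93). Its duplicate timp2a ran from 7.10 to 7.62, 6.98 to 7.70 and 6.92 to 7.64 in the 3 regions and was not called in any of the 3 comparisons (adjusted p from 0.757 to 0.925).

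The probe set the platform calls TIMP4 ordered all 3 regions, with medians of 7.46 in dorsal SVZ, 6.21 in parenchyma and 5.36 in the medial zone. It was 2.38-fold higher in dorsal SVZ than in parenchyma (log2 1.25, SE 0.22, adjusted p = 0.000157) and 1.73-fold lower in the medial zone than in parenchyma (adjusted p = 0.00819). The last call was lost without medial unlesioned replicate 1 (log2 -0.64, adjusted p = 0.0511). Medial and dorsal SVZ arrays did not overlap, and the medial zone was 4.13-fold lower (log2 -2.05, adjusted p = 1.42e-07). Unlesioned means of TIMP4 were 7.065 in dorsal SVZ, 6.478 in parenchyma and 5.467 in the medial zone. The annotation pairs this capital-letter symbol with no gene identifier, so whether it is a further zebrafish timp4 copy beside timp4.3 was not settled here. In the RefSeq annotation timp4.3 lies next to timp4.2, which was not analysed here.

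**Figure D2:**
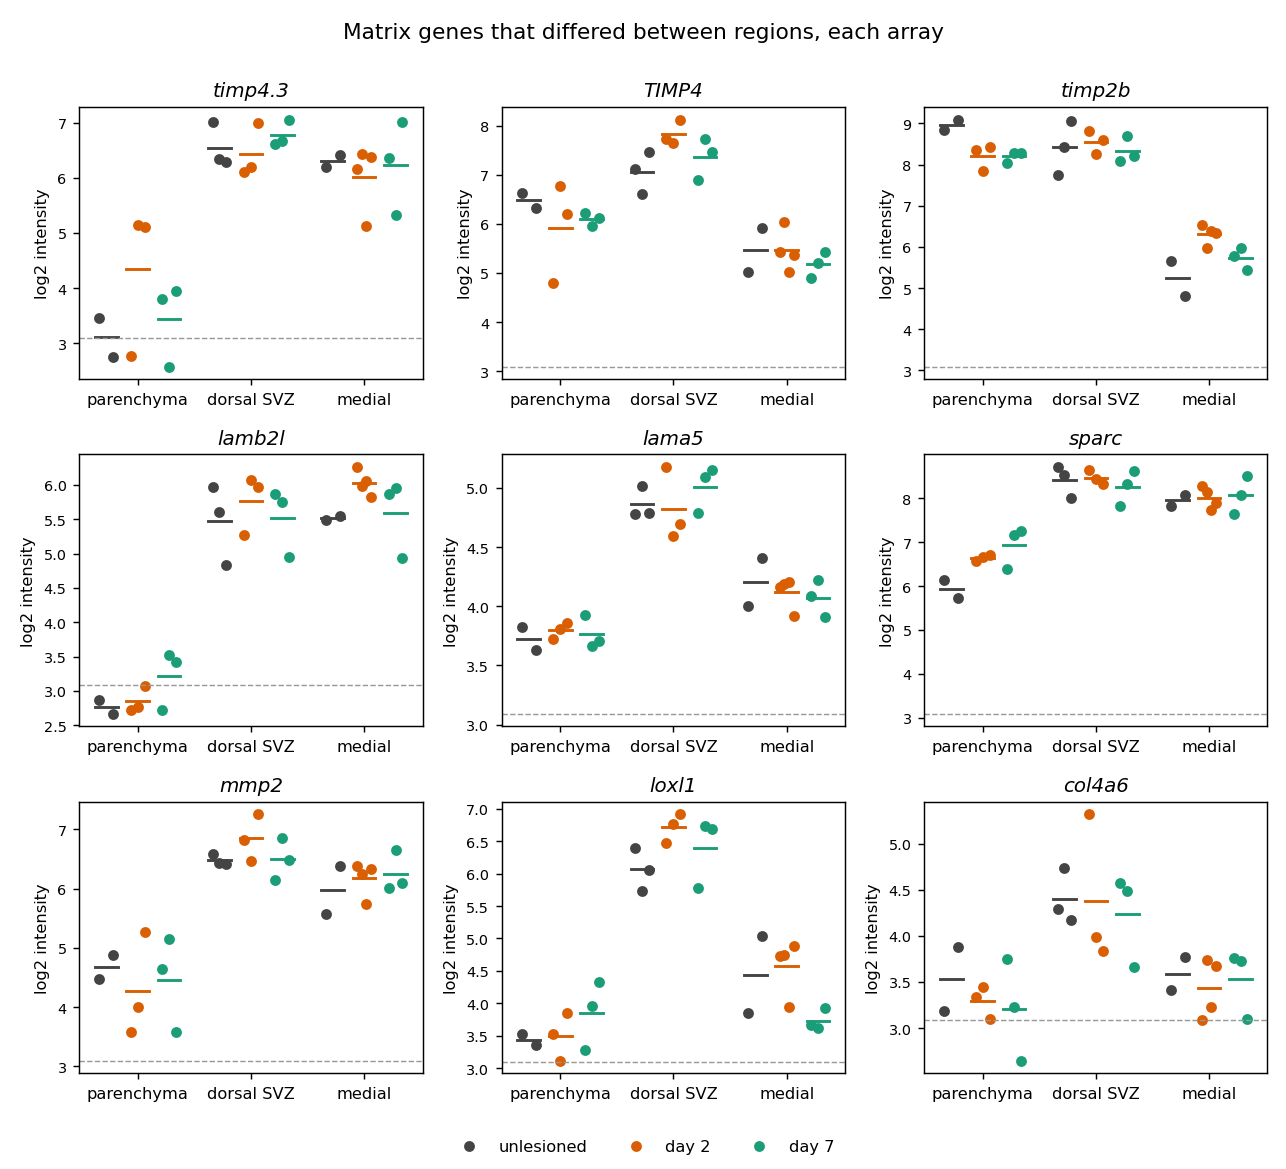
Log2 intensity of 9 matrix genes on each of the 26 arrays, by region and time (points, arrays; short bars, group means; dashed line, table median of 3.09). The parenchyma arrays of lamb2l stay between 2.67 and 3.52 while dorsal SVZ and medial arrays lie above 4.8, and the 9 dorsal SVZ arrays of loxl1 lie between 5.73 and 6.92.

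Among the 11 laminin chains 5 were higher in dorsal SVZ than in parenchyma and none was lower, against 11.9% and 7.28% of all genes. The beta chain gene lamb2l ran from 2.67 to 3.52 in parenchyma, from 4.83 to 6.07 in dorsal SVZ and from 4.93 to 6.26 in the medial zone. Parenchyma overlapped neither of the others. Dorsal SVZ was 6.24-fold above it (log2 2.64, SE 0.18, adjusted p = 1.13e-10) and the medial zone 6.81-fold (log2 2.77, SE 0.19, adjusted p = 6.18e-11). Its parenchyma median of 2.81 was under the table median, so both folds rest on a signal not shown to be above background there. The neighbouring gene lamb2, which lies next to lamb2l in the RefSeq annotation, was not called in any region comparison and ran from 2.63 to 3.84 over all arrays.

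The alpha chain gene lama5, a part of laminins of vessel and epithelial basement membranes, was ordered dorsal SVZ (4.60 to 5.18), medial zone (3.91 to 4.41) and parenchyma (3.63 to 3.93). Each step was called, at 2.2-fold from parenchyma to dorsal SVZ (log2 1.14, SE 0.10, adjusted p = 7.78e-09), 1.29-fold from parenchyma to medial zone (adjusted p = 0.00782) and 1.7-fold from medial zone to dorsal SVZ (adjusted p = 2.93e-06). The genes lamb3 and lamc3, a beta and a gamma chain, were higher in dorsal SVZ than in both other regions. Unlesioned means of lamb3 were 4.23 in dorsal SVZ, 3.42 in parenchyma and 3.15 in the medial zone. Those of lamc3 were 3.63, 3.21 and 2.90. For lamb3 the medial zone was 2.59-fold lower than dorsal SVZ (log2 -1.37, SE 0.21, adjusted p = 4.29e-05), with medial arrays at 2.82 to 3.39 and dorsal SVZ arrays at 3.79 to 5.77. The medial median of lamb3, 2.97, was under the table median. The chains lamb1a and LAMA2 were also called, lamb1a lower in the medial zone than in dorsal SVZ (1.59-fold, adjusted p = 0.000702) and, in a call lost without any 1 of 11 arrays, than in parenchyma (1.28-fold, adjusted p = 0.049) and LAMA2 higher in dorsal SVZ than in parenchyma (1.28-fold, adjusted p = 0.0292). A second lamb1a probe set of like brightness gave the first of these differences too (log2 -0.59, adjusted p = 0.0111) but not the second (-0.075, adjusted p = 0.763), and it was higher in dorsal SVZ than in parenchyma (0.52, adjusted p = 0.03). With the replicate number as a block within each time, the lamb1a call between medial zone and parenchyma was lost (adjusted p = 0.0736). The LAMA2 call was lost without any 1 of 7 arrays: parenchyma day 7 replicate 3, unlesioned parenchyma replicates 1 and 2, dorsal SVZ day 2 replicate 2, dorsal SVZ day 7 replicates 2 and 3 and unlesioned dorsal SVZ replicate 2 (log2 0.31 to 0.36, adjusted p = 0.0544 to 0.0669). It was also lost after array median subtraction (log2 0.18, adjusted p = 0.229), a second quantile normalization (0.27, adjusted p = 0.106) and with unlesioned arrays only (0.45, adjusted p = 0.239). The chains lamb1b, lamc1 and lama4 were not called between any regions, with medians of 5.19, 5.17 and 5.11 for lamb1b in parenchyma, dorsal SVZ and medial zone.

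The type IV collagens did not move as a block. The chains col4a5 and col4a6, which lie next to each other in the RefSeq annotation, were both highest in the dorsal SVZ. The gene col4a6 ran from 3.66 to 5.32 there, from 2.65 to 3.87 in parenchyma and from 3.09 to 3.77 in the medial zone. It was 2.0-fold above parenchyma (log2 1.00, SE 0.20, adjusted p = 0.000926, and 0.201 with unlesioned arrays only) and 1.77-fold above the medial zone (adjusted p = 0.00442, and 0.33 with unlesioned arrays only). Its second probe set gave smaller differences in the same directions (log2 0.39 for dorsal SVZ minus parenchyma and -0.47 for medial zone minus dorsal SVZ). The arrays of col4a5 in dorsal SVZ (3.13 to 3.62) overlapped neither parenchyma (2.61 to 3.07) nor the medial zone (2.62 to 3.06). All parenchyma and medial arrays of col4a5 lay under the table median, so its signal is not shown to be above background there. The main vascular chains were arranged otherwise: col4a1 was 1.36-fold lower in the medial zone than in parenchyma (log2 -0.45, SE 0.11, adjusted p = 0.00247, and 0.445 with unlesioned arrays only), and col4a2 was called nowhere. The unlesioned means of col4a1 were 3.72 in parenchyma and 3.43 in the medial zone, and its parenchyma mean at day 7 was 4.05. For col18a1a, the precursor of endostatin, the dorsal SVZ exceeded the medial zone 1.67-fold (adjusted p = 0.000143, and 0.129 with unlesioned arrays only). It also exceeded parenchyma 1.33-fold (adjusted p = 0.0252), but that call ended without any 1 of 5 arrays and after either change of scaling, and among unlesioned arrays the difference had the opposite sign (log2 -0.24).

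Fibrillar collagens were near the table median in many arrays, and their regional differences were small. Of 14 genes 1 was higher in dorsal SVZ than in parenchyma (11.9% of all genes). In the medial zone 4 were lower than in parenchyma (13.4% of all genes) and 5 were lower than in dorsal SVZ (8.27%). The type I chain gene col1a1b was the one most clearly apart among the 3 type I genes, with medians of 4.23 in dorsal SVZ, 3.99 in parenchyma and 3.86 in the medial zone, and the medial zone 1.42-fold below dorsal SVZ (log2 -0.51, SE 0.10, adjusted p = 0.000695, and 0.529 with unlesioned arrays only). Its duplicate col1a1a differed 1.27-fold in the same comparison (adjusted p = 0.0222), a call lost without unlesioned dorsal SVZ replicate 1 or either unlesioned medial array (adjusted p = 0.0502 to 0.0544), and col1a2 was called in none. The type V chain gene col5a1 was 1.25-fold higher in dorsal SVZ than in parenchyma (adjusted p = 0.0322), a call that ended without any 1 of 10 of the 17 arrays (log2 0.28 to 0.33, adjusted p = 0.0501 to 0.0702). It also ended after array median subtraction (log2 0.16, adjusted p = 0.283), a second quantile normalization (0.21, adjusted p = 0.213) and with unlesioned arrays only (0.04, adjusted p = 0.943). With the replicate number as a block within each time its adjusted p was 0.102. The related gene col5a2a was not called. Of the 27 other collagens, col14a1a, which codes for a fibril-associated collagen, was highest in the medial zone. It ran there from 5.44 to 6.12, against 4.47 to 5.21 in dorsal SVZ and 4.16 to 5.49 in parenchyma, and was 2.45-fold above parenchyma (log2 1.29, SE 0.15, adjusted p = 2.59e-07) and 1.85-fold above dorsal SVZ. The gene col7a1l was 1.6-fold higher in the medial zone than in dorsal SVZ without overlap (adjusted p = 5.25e-05), at medial values of 3.19 to 3.89. Its dorsal SVZ values ran from 2.69 to 3.13, with a median of 2.89 that lay under the table median. The network-forming collagen col8a1b was 1.88-fold lower in the medial zone than in dorsal SVZ (adjusted p = 0.000111), at medial values of 2.21 to 2.77 that all lay under the table median.

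The glycoprotein sparc, a collagen-binding protein secreted by many cell types, was 3.68-fold higher in dorsal SVZ than in parenchyma (log2 1.88, SE 0.15, adjusted p = 1.58e-09) and 2.85-fold higher in the medial zone (log2 1.51, SE 0.15, adjusted p = 5.27e-08). Its values ran from 5.73 to 7.25 in parenchyma, 7.82 to 8.72 in dorsal SVZ and 7.64 to 8.50 in the medial zone, so parenchyma overlapped neither of the others. The tenascins went the other way. The gene tncb (tenascin C) was 1.54-fold lower in dorsal SVZ (adjusted p = 0.00334) and 1.86-fold lower in the medial zone (log2 -0.89, adjusted p = 5.87e-05) than in parenchyma, where its median was 7.08. The gene tnr (tenascin R), known in mammals from perineuronal nets and myelinating cells, was 1.37-fold and 1.62-fold lower in these regions (adjusted p = 0.0142 and 0.000218), the first of which was lost without unlesioned parenchyma replicate 2 (log2 -0.39, adjusted p = 0.0586). The fibronectin gene fn1b was lowest in dorsal SVZ (3.49 to 4.02), 1.72-fold below parenchyma and 2.02-fold below the medial zone (adjusted p = 0.0224 and 0.00269), whereas fn1a and sparcl1 were called in none of the 3 comparisons, and the medians of sparcl1 lay between 2.39 and 2.74. The fn1b difference from parenchyma was lost without parenchyma day 2 replicate 3, day 7 replicate 2 or unlesioned replicate 1 (log2 -0.68 to -0.63, adjusted p = 0.051 to 0.0866). Among unlesioned arrays it was -0.11 (adjusted p = 0.931), with means of 3.52 in dorsal SVZ and 3.63 in parenchyma, and medial zone minus dorsal SVZ was 0.75 (adjusted p = 0.485). The averages over times include the lesioned arrays. The lectican brevican, bcan, was 1.53-fold higher in dorsal SVZ and 1.6-fold higher in the medial zone than in parenchyma (adjusted p = 0.00361 and 0.00115, and 0.153 and 0.211 with unlesioned arrays only). The versican gene vcanb was 1.45-fold higher in the medial zone than in dorsal SVZ (adjusted p = 0.014, and 0.086 without medial unlesioned replicate 2).

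Of the 7 lysyl oxidases, loxl1 marked the dorsal SVZ. It ran from 5.73 to 6.92 there, from 3.12 to 4.33 in parenchyma and from 3.62 to 5.04 in the medial zone, and the dorsal SVZ overlapped neither. It was 6.94-fold above parenchyma (log2 2.79, SE 0.19, adjusted p = 9.07e-11) and the medial zone was 4.41-fold below it (log2 -2.14, SE 0.19, adjusted p = 8.22e-09). The gene loxl2b was 2.44-fold higher in dorsal SVZ than in parenchyma (adjusted p = 3.77e-05), an average over times that its lesion response, given below, also enters. Its parenchyma median of 3.06 was just under the table median, so its signal is not shown to be above background there. The prototype enzyme loxa and the gene loxl2a were called in no region comparison, and the medians of loxa lay between 2.89 and 3.06.

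Among secreted metalloproteinases mmp2, a gelatinase that cuts type IV collagen, was higher in dorsal SVZ and medial zone than in parenchyma. Its parenchyma arrays ran from 3.58 to 5.26, its dorsal SVZ arrays from 6.15 to 7.26 and its medial arrays from 5.58 to 6.65, with parenchyma apart from both. The differences were 4.4-fold (log2 2.14, SE 0.22, adjusted p = 1.11e-07) and 3.17-fold (log2 1.67, SE 0.23, adjusted p = 3.87e-06). The stromelysin mmp11a was highest in the dorsal SVZ, 1.87-fold above parenchyma and 2.11-fold above the medial zone (adjusted p = 6.13e-05 and 4.74e-06). The gelatinase gene mmp9 and the collagenase gene mmp13a were not called between regions, and the highest mmp13a array stood at 3.19. Membrane-bound enzymes divided. The gene mmp14a, a copy of the enzyme that activates the mmp2 product in mammals, was 2.06-fold higher in dorsal SVZ than in parenchyma (adjusted p = 0.000163), mmp15b was 1.61-fold and 1.82-fold higher in dorsal SVZ and medial zone than in parenchyma (adjusted p = 0.00766 and 0.000694, the first 0.051 without unlesioned parenchyma replicate 2), and mmp14b was 1.72-fold higher in the medial zone than in parenchyma (adjusted p = 0.0115). Unlesioned means of mmp14a were 4.24 in dorsal SVZ and 3.68 in parenchyma. The gene mmp16a was 1.84-fold lower in the medial zone than in parenchyma (log2 -0.88, adjusted p = 0.000514) and mmp24 1.98-fold lower than in dorsal SVZ (log2 -0.98, adjusted p = 5.64e-07). The GPI-anchored enzyme mmp17a was lowest in dorsal SVZ, 1.49-fold below parenchyma and 1.76-fold below the medial zone (adjusted p = 0.00308 and 6.26e-05), and mmp25b was not called.

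The enzymes that make and process collagen were counted beside the collagens themselves. Of all genes, 11.9% were higher and 7.28% lower in dorsal SVZ than in parenchyma. In the medial zone 20.6% were higher and 13.4% lower than in parenchyma, and 11.3% higher and 8.27% lower than in dorsal SVZ. Of 34 listed genes of collagen synthesis and processing 15 were higher and none lower in dorsal SVZ than in parenchyma, with a median log2 difference of 0.35. In the medial zone 13 were higher and 4 lower than in parenchyma, and 1 higher and 6 lower than in dorsal SVZ. The gene pcolcea, an enhancer of procollagen cleavage, was 5.77-fold higher in dorsal SVZ than in parenchyma (log2 2.53, adjusted p = 4.41e-11) and 4.06-fold higher than in the medial zone (adjusted p = 2.07e-09). The procollagen protease gene bmp1b was 2.81-fold and 3.54-fold higher in the same 2 comparisons. For crtap, a part of the prolyl hydroxylation complex, dorsal SVZ and medial zone were above parenchyma, 4.48-fold and 3.58-fold. Of 32 further proteoglycan genes 10 were higher and 4 lower in dorsal SVZ than in parenchyma, led by cspg5b at 13.1-fold. The link protein gene hapln1a, which ties hyaluronan to lecticans, was 7.26-fold higher in the medial zone than in parenchyma (adjusted p = 2.29e-10). In that comparison 3 of 21 hyaluronan and link protein genes were higher and 3 lower, against 20.6% and 13.4% of all genes. Of 48 matricellular and elastic fibre genes 13 were higher and 3 lower in dorsal SVZ than in parenchyma, and 2 were higher and 14 lower in the medial zone than in dorsal SVZ. Array means of the 16 basement membrane partners overlapped between dorsal SVZ (4.25 to 4.48) and parenchyma (4.33 to 4.69). Those of 32 matrix receptors and of 36 adamalysins and other matrix proteases overlapped too. Over all 219 genes of the 7 lists, 55 were higher and 16 lower in dorsal SVZ than in parenchyma.

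Some lists of cell type markers differed between regions and others did not. Array means of 19 mural cell markers overlapped, at 4.27 to 4.88 in parenchyma, 4.34 to 4.51 in dorsal SVZ and 4.31 to 4.65 in the medial zone. Over all times the means of the neutrophil list and of the microglia and macrophage list overlapped between the regions too. Beside the counts below, 11.9% of all genes were higher and 7.28% lower in dorsal SVZ, and 20.6% higher and 13.4% lower in the medial zone, than in parenchyma. Of 23 radial glia markers 18 were higher and 1 lower in dorsal SVZ than in parenchyma, and the mean of the list ran from 5.69 to 6.49 over parenchyma arrays, from 7.80 to 8.21 over dorsal SVZ arrays and from 7.56 to 7.99 over medial arrays. Of 26 fibroblast and meningeal markers 12 were higher and none lower in dorsal SVZ than in parenchyma, with list means of 3.63 to 3.93, 4.47 to 4.71 and 4.13 to 4.50. Of 27 endothelial markers 14 were lower and 4 higher in dorsal SVZ than in parenchyma, with list means of 4.58 to 5.12, 4.18 to 4.56 and 4.03 to 4.29. The mean of 13 oligodendrocyte lineage markers ran from 5.24 to 6.12 in parenchyma, from 4.63 to 5.10 in dorsal SVZ and from 4.93 to 5.40 in the medial zone, with 8 lower and 1 higher in dorsal SVZ, and 7 lower and 1 higher in the medial zone, than in parenchyma. The mean of 25 neuron markers ran from 7.61 to 8.14, 7.08 to 7.53 and 7.33 to 7.94, with 12 lower and none higher in dorsal SVZ, and 10 lower and 6 higher in the medial zone, than in parenchyma. The tenascin genes tnr and tncb were also lower in both. With unlesioned arrays only, their dorsal SVZ differences were log2 -0.20 (adjusted p = 0.706) for tnr and -0.66 (adjusted p = 0.167) for tncb. The part of these cells in the matrix differences was not tested. Among unlesioned arrays alone 10, 11 and 7 matrix genes were called in the 3 comparisons, where 6.69%, 10.5% and 4.15% of all genes were, and 8, 10 and 7 of these were among the calls over all times.

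Few matrix genes were called after the lesion, and the same was true of all genes. At day 2, averaged over the 3 regions, 1 of the 104 matrix genes was higher and 2 were lower, while 3.9% of all genes were called, 2.73% higher and 1.17% lower. The median log2 fold change of the matrix genes was 0.02 and that of all genes 0.00. These averages treat the arrays of the 3 regions as independent. Same-numbered arrays of some regions shared deviations at day 2 and day 7, so the SEs and adjusted p of the averages may be too small. Within single regions no matrix gene was called at day 2 in parenchyma, where 2.04% of all genes were, or in the medial zone (0.493%), and 1 was lower in dorsal SVZ (0.27% of all genes called, 0.0883% lower). At an unadjusted p under 0.05 in limma, 15, 6 and 4 matrix genes passed in parenchyma, medial zone and dorsal SVZ, which is 14.4%, 5.77% and 3.85% of them against 12.5%, 8.39% and 6.8% of all genes. No matrix gene's day 2 effect was called different between regions, where 0.0519%, 0.0104% and 0% of all genes were called for dorsal SVZ against parenchyma, medial zone against parenchyma and medial zone against dorsal SVZ. At an unadjusted p under 0.05, 7, 7 and 1 matrix genes were, or 6.73%, 6.73% and 0.962% against 6.8%, 7.3% and 3.15% of all genes.

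**Figure D3:**
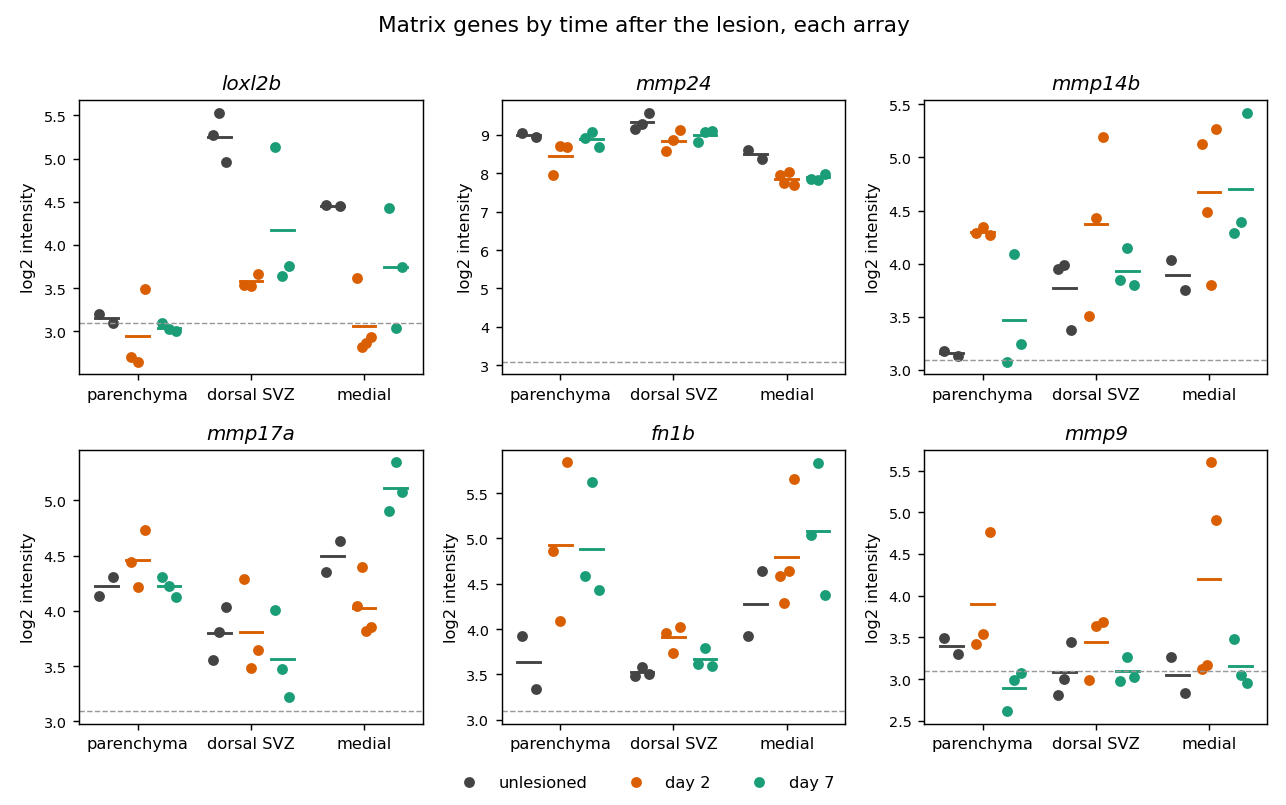
Log2 intensity of 6 matrix genes on each of the 26 arrays by time after the lesion (points, arrays; short bars, group means; dashed line, table median of 3.09). For loxl2b the unlesioned dorsal SVZ arrays lie between 4.96 and 5.53 and the day 2 arrays between 3.53 and 3.67, and for mmp9 2 of the 4 medial day 2 arrays stand at 4.91 and 5.60.

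The lysyl oxidase gene loxl2b, which in mammals cross-links collagen including type IV, fell in dorsal SVZ and in the average over regions. In unlesioned dorsal SVZ it was at 5.27, 5.53 and 4.96, at day 2 at 3.54, 3.53 and 3.67, and at day 7 at 5.13, 3.64 and 3.76. In the medial zone it was at 4.47 and 4.45 without a lesion, at 3.62, 2.82, 2.87 and 2.94 at day 2, and at 4.43, 3.04 and 3.75 at day 7. In parenchyma all 8 arrays lay between 2.65 and 3.49. The day 2 arrays thus lay below all unlesioned arrays in dorsal SVZ and medial zone. Day 2 and unlesioned arrays were apart there, in either direction, for 14% and 16.6% of all genes. In parenchyma loxl2b was low throughout. Medial day 2 replicates 2, 3 and 4 lay under the table median of 3.09, where signal is not shown to be above background. The means in dorsal SVZ were 5.25 ± 0.29 (SD, n = 3) and 3.58 ± 0.08 (SD, n = 3), a 3.2-fold fall (log2 -1.68, SE 0.33, adjusted p = 0.0266 in limma). That call was lost without any 1 of the 6 arrays (log2 -1.83 to -1.54, adjusted p = 0.0688 to 0.168). The medial fall of 2.63-fold was not called (log2 -1.40, SE 0.35, adjusted p = 0.0935), and averaged over regions the gene fell 2.13-fold (log2 -1.09, SE 0.20, adjusted p = 0.00196), a call kept without each array. At day 7 the average was -0.64 (SE 0.21, adjusted p = 0.328), with dorsal SVZ replicate 1 back among the unlesioned values and medial replicate 1 just under them.

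The membrane metalloproteinase gene mmp24, expressed mainly by neurons in mammals, was lower at day 2 in every region and fell in the average. It was at 9.06 and 8.95 in unlesioned parenchyma and at 7.96, 8.73 and 8.69 at day 2. In dorsal SVZ it was at 9.17, 9.30 and 9.59 and then at 8.57, 8.86 and 9.12. In the medial zone it was at 8.61 and 8.39 and then at 7.95, 7.75, 8.04 and 7.69. Day 2 and unlesioned arrays did not overlap in any of the 3 regions. Taken region by region, this held in either direction for 24.7% of all genes in parenchyma, 14% in dorsal SVZ and 16.6% in the medial zone. The average fall was 1.48-fold (log2 -0.56, SE 0.12, adjusted p = 0.00554), a call kept without each array, and at day 7 the log2 fold change was -0.35 (SE 0.12, adjusted p = 0.336). The mean of 25 neuron markers in the medial zone ran from 7.63 to 7.94 without a lesion and from 7.33 to 7.55 at day 2, with no marker called, and their part in the mmp24 value was not tested. In parenchyma that mean overlapped, at 7.63 to 7.89 and 7.61 to 7.92.

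The gene mmp14b was the matrix gene that rose at day 2. In parenchyma it was at 3.18 and 3.13 without a lesion, at 4.29, 4.34 and 4.27 at day 2, and at 3.08, 4.09 and 3.24 at day 7. In dorsal SVZ it was at 3.95, 3.99 and 3.37 and then at 3.51, 4.43 and 5.19, and in the medial zone at 4.04 and 3.75 and then at 5.13, 4.49, 3.80 and 5.26. Only in parenchyma were day 2 and unlesioned arrays apart, as they were there for 24.7% of all genes in either direction. The difference of the day 2 effect on mmp14b between regions was not called. The average rise was 1.79-fold (log2 0.84, SE 0.23, adjusted p = 0.0398). Leaving out each of the 17 arrays in turn ended the call for 12 of them: all 5 parenchyma arrays, dorsal SVZ day 2 replicates 2 and 3 and unlesioned replicate 3, and medial day 2 replicates 1 and 4 and unlesioned replicates 1 and 2 (log2 0.71 to 0.89, adjusted p = 0.0538 to 0.111). Its duplicate mmp14a had a log2 fold change of 0.38 (95% interval from -0.005 to 0.77, adjusted p = 0.332).

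Genes that a wound matrix is often described by did not pass the test. The fibronectin gene fn1b was at 3.92 and 3.34 in unlesioned parenchyma, at 4.86, 4.09 and 5.84 at day 2 and at 4.59, 5.62 and 4.43 at day 7, with no lesioned array as low as the unlesioned ones. Lesioned and unlesioned parenchyma arrays were apart, in either direction, for 24.7% of all genes at day 2 and 21.7% at day 7. The log2 fold changes of fn1b were 1.30 (SE 0.45, adjusted p = 0.162, and 0.0461 without day 2 replicate 2) and 1.25 (SE 0.45, adjusted p = 0.274), and averaged over regions 0.73 at both times (adjusted p = 0.104 and 0.336). For fn1a the day 2 average was 0.49 (95% interval from 0.12 to 0.87, adjusted p = 0.152). The gelatinase gene mmp9, a product of neutrophils and microglia, stood at 3.12, 3.17, 5.60 and 4.91 in the medial zone at day 2, against 3.27 and 2.84 without a lesion, and at 3.42, 3.54 and 4.76 in parenchyma at day 2. The high values came from 3 of 10 day 2 arrays, and the average change was 0.67 (SE 0.28, adjusted p = 0.23). The collagen and laminin chains with the clearest day 7 averages, col1a1a (0.34), lamb1b (0.43) and lamc1 (0.40), had adjusted p of 0.333, 0.39 and 0.469. None of the 10 basement membrane collagens, 14 fibrillar collagens or 11 laminins was called in any lesion comparison, where at most 3.9% of all genes were.

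**Figure D4:**
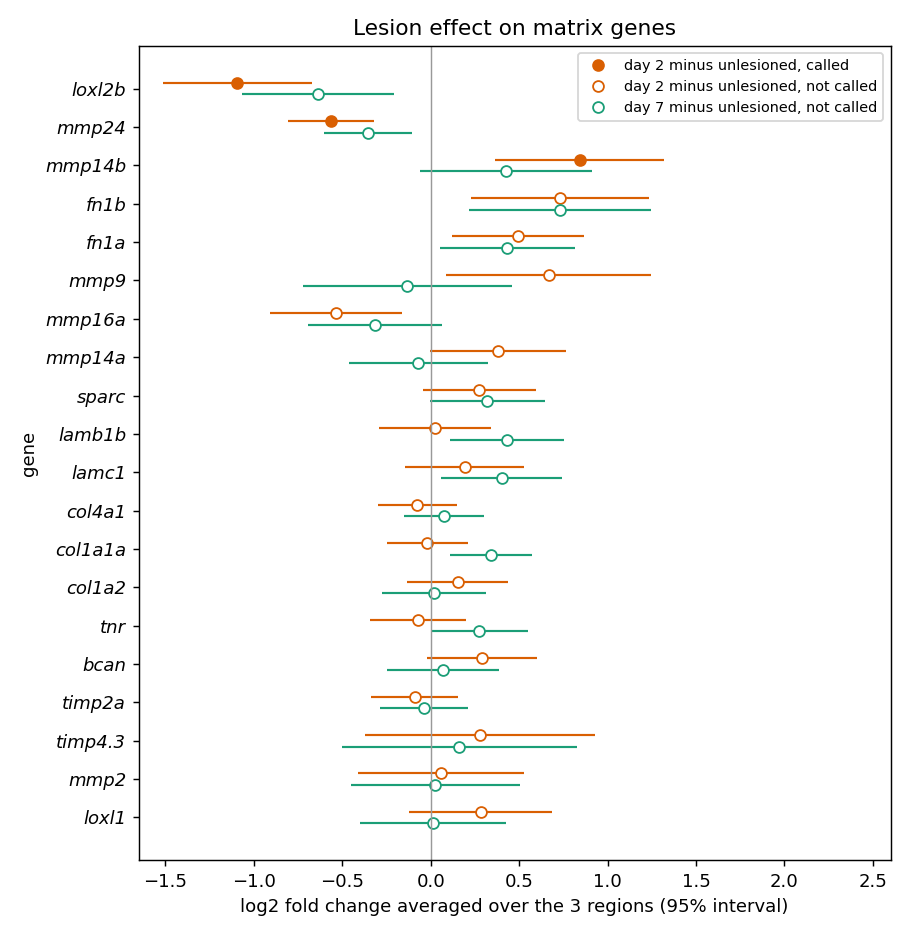
Log2 fold change after the lesion, averaged over the 3 regions, for 20 matrix genes at day 2 (orange) and day 7 (green), with 95% intervals. Filled points are called at an adjusted p under 0.05: loxl2b and mmp24 lie below 0 and mmp14b above it at day 2, and no gene is called at day 7.

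A single-region value of col18a1a stood near the threshold, while those of timp4.3 and timp2b on all arrays did not. In parenchyma col18a1a was at 3.82 and 3.64 without a lesion and at 2.49, 2.78 and 3.21 at day 2, which is a difference of -0.90 on the log2 scale (SE 0.24, adjusted p = 0.0523). It was called after a second quantile normalization (adjusted p = 0.0111), array median subtraction (adjusted p = 0.0249) and without day 2 replicate 3 (log2 -1.09, adjusted p = 0.0266). The gene timp4.3 was at 3.45 and 2.75 without a lesion and at 2.76, 5.15 and 5.11 at day 2 there (log2 1.24, SE 0.57, adjusted p = 0.37). Without day 2 replicate 1, an array of low quality weight, the change was 2.03 and was called (adjusted p = 0.027). With array quality weights and all arrays kept, no matrix gene was called in parenchyma at day 2, timp4.3 included. The gene timp2b had a positive day 2 change in the medial zone (log2 1.07, adjusted p = 0.126) and a negative one in parenchyma (-0.76, adjusted p = 0.267), and the difference between them was not called (1.83, SE 0.42, adjusted p = 0.15).

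By day 7 no matrix gene was called against unlesioned tissue in parenchyma (0.125% of all genes called), dorsal SVZ (0%), the medial zone (0%) or their average (0.0935%). At an unadjusted p under 0.05, 17, 3, 3 and 11 matrix genes were, or 16.3%, 2.88%, 2.88% and 10.6% against 10.8%, 4.45%, 4.07% and 8.68% of all genes. In parenchyma sparc was at 6.13 and 5.73 without a lesion, at 6.56, 6.66 and 6.70 at day 2 and at 6.40, 7.17 and 7.25 at day 7, with every lesioned array above both unlesioned ones. Arrays were apart there, in either direction, for 24.7% of all genes at day 2 and 21.7% at day 7. The day 7 change of sparc of 1.01 (SE 0.28, adjusted p = 0.156) was not called. Between day 7 and day 2 no matrix gene was called in parenchyma (1.15% of all genes) or dorsal SVZ (0.0519%), and 12 and 0 were at an unadjusted p under 0.05 (10.2% and 4.54% of all genes). In the medial zone 1 was higher (0.421% of all genes called, 0.114% higher). This was mmp17a, at 4.05, 4.40, 3.81 and 3.85 at day 2 and at 4.90, 5.35 and 5.07 at day 7, with 4.35 and 4.64 without a lesion. Day 7 lay above all other medial arrays. Medial day 7 arrays were apart, in either direction, from day 2 arrays for 8.85% of all genes and from unlesioned arrays for 18.8%. The rise of mmp17a from day 2 was 2.12-fold (log2 1.08, SE 0.21, adjusted p = 0.0256). The call was lost without day 2 replicate 1, 3 or 4 or day 7 replicate 2 or 3 (adjusted p = 0.0532 to 0.129).

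Around the matrix genes, 219 other matrix genes in 7 lists were counted, and 9 of them were higher and none lower at day 2 averaged over regions. At that time 2.73% of all genes were called higher. The collagen-cutting lysosomal protease gene ctsk rose 4.92-fold (log2 2.30, adjusted p = 5.28e-08), ctsba, which encodes cathepsin B, had a log2 rise of 1.88 (adjusted p = 0.00169), and the sheddase genes adam9a and adam10a rose by 0.91 and 0.68 (adjusted p = 0.00683 and 0.00326). The leukocyte integrin gene itgb2 rose by 1.76 (adjusted p = 4.59e-06), itgav by 0.60 (adjusted p = 0.0306) and the proteoglycan gene sdc4 by 0.89 (adjusted p = 0.0234). The other 2 were ITGB7, an integrin gene, and hmmr, a hyaluronan receptor gene, at 0.45 and 0.48. None of 48 matricellular and elastic fibre genes and none of 16 basement membrane partners passed. Microglia and macrophage markers moved with these genes, with 18 of 21 higher at day 2 and a median log2 fold change of 1.68. The mean of that list ran from 4.18 to 4.25 over the unlesioned parenchyma arrays and from 6.13 to 7.23 at day 2, and the part of these cells was not tested. Of 26 fibroblast and meningeal markers none was called at day 2 (median 0.06), and of 9 neutrophil markers 1 was higher.

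Of the 6 genes matched by letters only, none was called after the lesion. TNRC6A was called higher in dorsal SVZ and medial zone than in parenchyma, tnrc6c1 was higher in the medial zone than in both others, and loxhd1a and loxhd1b were lower in the medial zone than in parenchyma, with the loxhd1a call lost under a replicate block within each time (adjusted p = 0.0717).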

How the data were processed

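Total RNA of 26 samples was amplified, biotin-labelled and hybridised to 1-colour zebrafish gene arrays, per the labels' protocols. The authors deposited log2 intensities for 75212 probe sets, made with RMA in Affymetrix Expression Console 1.2, per the submitters' processing notes. Their table was used as deposited. Scanner files were not used here, so detection above background and scan batches were not analysed, and the number of arrays limits the precision.

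Of the probe sets 20806 had 1 gene symbol, 855 had several and 53551 had none in the platform annotation, and 20323 carried a gene identifier found in RefSeq, which changed 1 symbol. Probe sets with 1 symbol were reduced to 19260 genes by taking the set with the highest mean. In limma 3.58.1 (R 4.3.3) a mean per group was fitted over the 26 arrays, with 17 contrasts and Benjamini-Hochberg adjustment over all genes at 0.05, and tested on simulated data. The region comparisons average the 3 times and the average lesion effects the 3 regions. Named genes were every called member of a comparison with 8 or fewer calls, otherwise the 4 with the largest rise and the 4 with the largest fall, and the standard members of each role listed in the design. The members lamc3, lamb3, col4a5, col4a6, col8a1b, mmp11a, mmp15b and mmp16a, where outside that rule, and the named genes of the other lists were chosen after their values were seen. Members and lists were chosen with earlier results of these data known. One listed gene, papl, was left out because its alias matched an unrelated acid phosphatase. No sequences or coordinates are given, since no genome was used here.

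Alternatives were array quality weights, removal of the lowest 33.3% of genes, a second quantile normalization, array median subtraction, a replicate block, a trended and robust prior, fits of each region alone, every probe set, unlesioned arrays only, each array left out, and, chosen after seeing the data, the 2 arrays of lowest weight left out and, between regions, a replicate block within each time. Same-numbered arrays were checked for shared deviations from group means. Within a region, across times, they correlated between -0.098 and 0.12 (1 of 23 pairs over 0.1), so the lesion comparisons were not treated as paired. Across regions they correlated between 0.077 and 0.224 at day 7 (8 of 9 pairs over 0.1), between -0.061 and 0.239 at day 2 (3 of 9, all parenchyma with dorsal SVZ, 0.147 to 0.239) and between -0.154 and 0.002 without a lesion (0 of 6). The numbers thus tie some regions at some times. The region comparisons and the lesion effects averaged over regions leave this out unless a block is named. Where tied arrays deviate together, the SE of an average over regions is too small, and by how much was not tested.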

Additional observations from a re-analysis of the deposited data

Results flagged for a closer look

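In the medial zone at day 2, the one group with 4 arrays, 104 matrix genes were examined for an array standing far from the other 3, and 7 had one. Chance gives about 1 group in 20. Replicate 4 stood apart for col5a3b (4.348, the others between 4.134 and 4.157), lama5 (3.921, the others between 4.162 and 4.201) and lamb1b (5.127, the others between 4.728 and 4.795). Replicate 3 stood apart for lamc1 (4.01, the others between 4.999 and 5.075) and loxl1 (3.949, the others between 4.733 and 4.888). Replicate 1 stood apart for loxl2b (3.62, the others between 2.823 and 2.935) and mmp17b (2.938, the others between 3.043 and 3.048). All are log2 intensities. The high loxl2b array still lay below both unlesioned medial arrays.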

How the results depend on the processing

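The counts are of matrix genes called. Between regions they were 25 (dorsal SVZ against parenchyma), 41 (medial zone against parenchyma) and 28 (medial zone against dorsal SVZ). With array medians subtracted the first 2 became 55 and 75, where 33.9% and 52.5% of all genes were called. Without the lowest 33.3% of genes the second became 25, where fewer genes were tested and the share called is not given here. With unlesioned arrays only, hence fewer samples, the 3 became 10, 11 and 7. Among the unlesioned arrays col18a1a reversed between dorsal SVZ and parenchyma, at log2 -0.245. For parenchyma at day 2 the count of 0 became 1 after a second quantile normalization, array median subtraction, the replicate block, the trended and robust prior, and without the 2 arrays of lowest weight. The dorsal SVZ day 2 count of 1 became 0 in a fit of the region alone, and the medial count of 1 between day 7 and day 2 became 0 there and with the replicate block; the cause was not tested. Leaving out each array gave 0 to 0 for dorsal SVZ at day 2, 0 to 1 for medial day 7 against day 2, 0 to 2 for parenchyma at day 2, 0 to 1 for parenchyma at day 7 and for parenchyma day 7 against day 2, 2 to 4 for the day 2 average, and 23 to 27, 32 to 43 and 23 to 28 between regions. Shares of all genes called without each array are not given here. With the replicate block mmp14b was no longer called in the day 2 average (adjusted p = 0.0963) nor mmp17a in the medial zone (adjusted p = 0.08). It also ended calls of col5a1 between dorsal SVZ and parenchyma (adjusted p = 0.0512) and lamb1a between medial zone and parenchyma (adjusted p = 0.0706). A replicate block within each time gave 23, 36 and 28 calls between regions, where 18.1%, 32.1% and 17.9% of all genes were called. The main calls included 23, 34 and 27 of them. This block lost 11 single calls: col5a1 (adjusted p = 0.102), lamb1a (adjusted p = 0.0736), col16a1, COL13A1, col17a1a, col17a1b, col27a1a, col28a1b, mmp19, mmp28 and loxhd1a. Over all genes, array quality weights gave 247 calls in parenchyma and 85 in dorsal SVZ at day 2, array median subtraction gave 6530 and 10114 for the first 2 region comparisons, and the fit of each region alone gave 80 in parenchyma and 54 in the medial zone at day 2. Of the single-gene values 2964 kept direction and side of the threshold, 365 lost the call, 13 gained it and 1 reversed. Dim signal limits 44 of the 104 genes, whose means lie at or under the table median.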
